A study of Mus musculus with 41 samples.

Results

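The 10 genes examined here, Dusp6, Dusp4, Dusp5, Spry2, Spry4, Spred1, Etv4, Etv5, Egr1 and Ier3, are feedback regulators and immediate targets of the MEK-ERK cascade. They were picked by gene symbol with earlier results of these data known, and all 10 were found among the 24028 distinct symbols listed for each library. RNA-seq values were analysed for 13 libraries of androgenetic haploid embryonic stem cells (AG-haESCs), mouse cells that carry a single, sperm-derived genome. All 13 libraries are labelled as C57BL/6, and the study lists an actin-EGFP transgene for TSa2i-14. The wild-type line 2i-14 was kept in 2i/L and gave 3 libraries, at p18, p39 and p50. 2i/L is a serum medium with LIF, the Mek inhibitor PD0325901 and the Gsk3 inhibitor CHIR99021. There were 5 libraries of wild-type TSa2i/L lines, namely p22, p47 and p54 of TSa2i-14 as well as p9 and p58 of TSa2i-C57. These lines were derived with serum in a2i/L, which replaces PD0325901 with the Src inhibitor CGP77675, and were then kept in the serum-free version, SF/a2i/L. The last 5 libraries came from switched 2i-14 cells and from a pair of deleted lines, each in 2i/L and after the switch: 2i-O48 lacks the DMRs (imprinting control regions) of H19 and IG, and the line 2i-O48-TKO lacks H19 as well. Switched cells had spent 5 passages in SF/a2i/L after 2i/L. CHIR99021 and LIF were common to all 13 libraries.

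The switch removed PD0325901 and serum, added CGP77675 and changed the basal medium at once, so these cannot be told apart. In the comparison of TSa2i/L with 2i/L the line differed as well. The labels give no passage for the DMR-deleted lines or for the switched cells. Libraries of a line were passages of that line and not independent derivations, so p-values measure only the spread between these samples. Cells were grown on feeder fibroblasts, and each library came from a small number of cells whose cDNA was amplified. In such bulk samples, fewer cells that express a gene and less RNA per cell cannot be told apart.

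The ERK cascade carries signals from receptor tyrosine kinases through RAS, RAF and MEK to ERK, which enters the nucleus and phosphorylates transcription factors. Its early targets include immediate early genes such as Egr1 and genes that damp the cascade again: dual-specificity phosphatases that dephosphorylate ERK, Sprouty and Spred proteins that act at the level of RAS and RAF, and the ETS factors Etv4 and Etv5. In mouse ESCs, autocrine Fgf4 drives this cascade and primes the cells for differentiation, and Mek inhibition holds them in the naive state.

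RefSeq promoter windows of GRCm38.p6 were matched for 6 of the 10 genes, and not for Dusp4, Spry4, Etv4 and Egr1, whose motifs are thus unknown here. The 250 bases upstream of the start are shown for Dusp6, which rose after the switch, and for Dusp5 and Ier3, which were lower in all 3 switched lines. Capitals mark CArG boxes, the sites bound by serum response factor. The windows are chr10:99262981-99263230 for Dusp6, chr19:53528895-53529144 for Dusp5 and chr17:35821463-35821712 for Ier3, all on the plus strand.
Dusp6: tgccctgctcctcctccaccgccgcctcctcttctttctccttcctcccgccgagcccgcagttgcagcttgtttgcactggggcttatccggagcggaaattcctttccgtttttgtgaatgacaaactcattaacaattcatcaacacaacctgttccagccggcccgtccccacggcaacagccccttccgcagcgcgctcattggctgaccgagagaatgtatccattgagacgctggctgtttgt
Dusp5: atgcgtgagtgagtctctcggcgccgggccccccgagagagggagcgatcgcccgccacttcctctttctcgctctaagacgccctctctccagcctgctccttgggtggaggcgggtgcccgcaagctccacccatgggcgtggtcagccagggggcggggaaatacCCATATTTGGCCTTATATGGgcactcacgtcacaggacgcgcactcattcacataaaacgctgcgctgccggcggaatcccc
Ier3: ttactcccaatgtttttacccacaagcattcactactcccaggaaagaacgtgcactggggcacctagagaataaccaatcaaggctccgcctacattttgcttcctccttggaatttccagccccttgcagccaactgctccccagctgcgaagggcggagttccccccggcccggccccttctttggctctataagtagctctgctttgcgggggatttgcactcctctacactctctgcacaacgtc

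Only the Dusp5 window of these 3 held a CArG box. It held 2 of them side by side, at bases -82 to -73 and -72 to -63 relative to the start. A CArG box was found in 1.63% of 32851 promoter windows of 300 bases, and 2 or more in 0.018%. The ETS core CCGGAA, searched on both strands, was in 14.9% of the windows and, among the matched genes, in that of Spry2 from base 34 to base 39 after the start. The AP-1 site TGAGTCA, also searched on both strands, was in 5.2% of the windows and in none of the 6 matched genes. These matches of letters are descriptions of the windows and were not tested as binding sites. The 3 genes shown were picked by their direction after the switch, so the motifs say nothing about that direction.

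All 10 genes are annotated as protein coding in GENCODE vM1 on NCBIM37 (mm9), the build used for mapping. Dusp6 lies on chromosome 10 (98725865 to 98730122, plus strand), Dusp4 on chromosome 8 (35870351 to 35882948, plus) and Dusp5 on chromosome 19 (53603599 to 53616921, plus). Spry2 lies on chromosome 14 (106291166 to 106296036, minus), Spry4 on chromosome 18 (38745922 to 38760922, minus) and Spred1 on chromosome 2 (116947110 to 117008015, plus). Etv4 lies on chromosome 11 (101631056 to 101646685, minus) and Etv5 on chromosome 16 (22381382 to 22439792, minus). Egr1 lies on chromosome 18 (35020861 to 35024638, plus) and Ier3 on chromosome 17 (35958629 to 35959868, plus).

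The deposited values are FPKM, fragment numbers scaled to transcript length and to the mapped total of a library. Since the cDNA was amplified, levels of different genes can be compared only roughly. In 2i-14 cells in 2i/L, Spry2 (46.5 ± 13.02 FPKM, SD, n = 3), Etv5 (33.9 ± 10.5) and Ier3 (25.8 ± 11.4) were abundant in the presence of the Mek inhibitor. The means of the other 7 genes were 0.0725 to 2.2 FPKM. The FPKM steps of single fragments implied depths of 12700000 to 19900000 fragments per library. At these depths 4 of the 130 values of the 10 genes were under 3 fragments, which covers counting error only. Pluripotent cell markers (10 genes) were all at 1 FPKM or more in each library, with sums of 16287 to 35471 FPKM. Fibroblast markers (15 genes) summed to 2.17 to 11.5 FPKM in 10 libraries, but to 145 for p54 of TSa2i-14, 61.9 for p39 of 2i-14 and 45.5 for p58 of TSa2i-C57. Primitive endoderm markers (10 genes) summed to 49.8 to 260 FPKM, most of it Sparc, and trophoblast markers (10 genes) to 12.4 to 108 FPKM, the highest in 2i-O48.

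**Figure D1:**
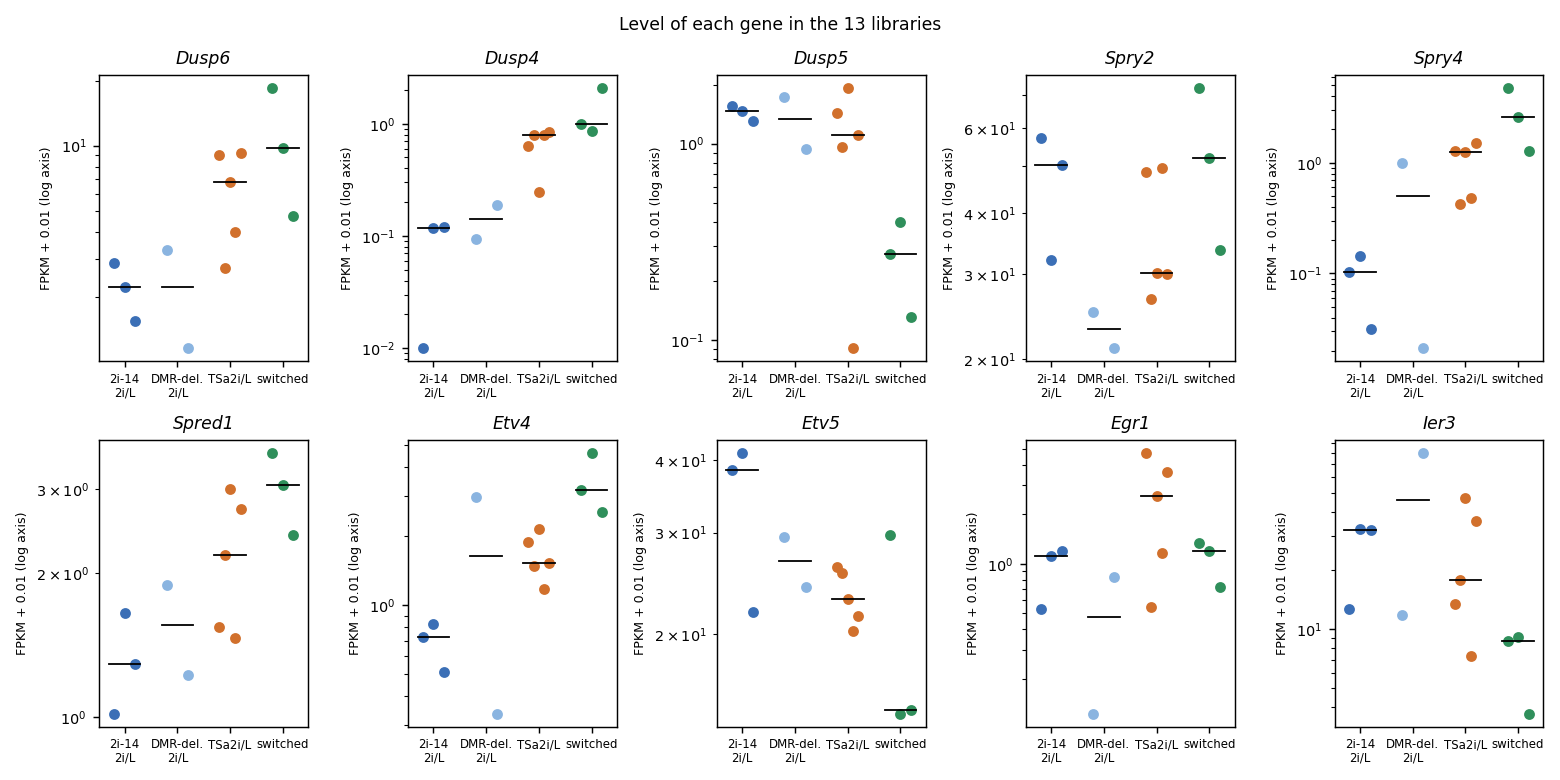
FPKM of each of the 10 genes in every library, on a log axis after adding 0.01 so that a value of 0 can be shown; points are libraries, grouped as 2i-14 in 2i/L (3), DMR-deleted lines in 2i/L (2), TSa2i/L (5) and switched cells (3), and bars are medians. Dusp4 lies between 0 and 0.179 FPKM in the 5 libraries with PD0325901 and between 0.235 and 2.09 FPKM in the 8 libraries without it.

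Switched cells were compared with the same 3 lines in 2i/L to ask how these genes stand when cells leave the Mek inhibitor. After the switch, the ERK phosphatase gene Dusp6, the RAS-RAF inhibitor gene Spry4 and the ETS factor gene Etv4 rose, with mean FPKM 5.57, 8.51 and 2.74 times as high as before (3.29, 3.88 and 2.19 times without 2i-14). Without 2i-O48 these ratios were 8.71 for Dusp6, 183 for Spry4 and 6.89 for Etv4. That of Spry4 then rests on about 1.90 and 0.95 fragments before the switch. The control of 2i-14, p50, had the lowest Dusp6, Spry4 and Etv4 of its passages in 2i/L. Ratios that include 2i-14 would therefore be lower with p18 or p39 as its control. The phosphatase gene Dusp4, too low for the main test, was higher in all 3 lines, as were Spry2 and Spred1. The genes Dusp5 and Ier3 went the other way in all 3 lines. Of the 8 genes tested, 3 were called higher and none lower by limma (adjusted p under 0.05), where 2.22% of all 9759 tested genes were called higher and 4.66% lower. With median centring 386 of all tested genes were called higher and 314 lower, against 217 and 455, and 4 of the 8 were called higher. Spry4 and Etv4 could not have passed the filter without their switched libraries, so the count of 3 is no support for the 10 genes, and Dusp6 alone of the 3 was above 1 FPKM in all 3 lines before the switch. The median log2 change was 0.72 over the 8 genes and 0.51 over the 6 without Spry4 and Etv4, against -0.09 over all tested genes. Of the 8 tested genes, 5 were higher in all 3 lines (Dusp6, Spry2, Spry4, Spred1 and Etv4), where 19.4% of all tested genes were, and 1 was lower in all 3 (Ier3), where 29.4% were. Without Spry4 and Etv4, 3 of 6 were higher in all 3 lines. Egr1, at 1 FPKM or more in 1 library in 2i/L and 2 switched ones, also passed the filter only through its switched libraries. Dusp5, with 2 and 0 such libraries, was not tested. These medians and counts, also those without Spry4 and Etv4, thus depend in part on the filter. Tested genes had an FPKM of at least 1 in at least 3 of the 6 libraries, and changes are on the log2(FPKM + 1) scale, which understates those of low genes.

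Dusp6 encodes the phosphatase that removes activating phosphates from ERK in the cytoplasm. It went from 1.53 to 18.6 FPKM in 2i-14, from 3.26 to 9.76 in 2i-O48 and from 1.14 to 4.74 in 2i-O48-TKO. All 3 switched libraries lay above all 3 libraries in 2i/L, and the step was steepest in 2i-14. The log2 change was 1.90 (SE 0.35, adjusted p = 0.0331). In 2i-14, p18 and p39 in 2i/L had 2.86 and 2.21 FPKM, more than the p50 control. With p18 or p39 as the control the log2 change was 1.70 or 1.79.

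Dusp4 encodes a nuclear phosphatase of ERK and other MAP kinases. It went from 0.109 to 0.983 FPKM in 2i-14, from 0.0846 to 0.858 in 2i-O48 and from 0.179 to 2.09 in 2i-O48-TKO. The ratios within lines were 8.98, 10.1 and 11.7, and the groups did not overlap. The values before the switch rest on about 4.62 to 9.10 fragments and those after it on about 43.7 to 96.1. With a filter that kept genes of a mean FPKM of at least 0.1, chosen after the values were seen, the log2 change was 1.00 (SE 0.17, adjusted p = 0.0465), where 0.872% of 13765 genes were called higher and 1.94% lower. Dusp6, Spry4 and Etv4 were not called with that filter (adjusted p = 0.0564, 0.0745 and 0.0768).

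Dusp5 encodes the nuclear phosphatase that is specific for ERK and anchors it there. It went from 1.30 to 0.264 FPKM in 2i-14, from 1.71 to 0.388 in 2i-O48 and from 0.933 to 0.121 in 2i-O48-TKO, so that each switched library had 0.129 to 0.226 times the level of its line in 2i/L. All 3 switched libraries lay below all 3 libraries in 2i/L. Dusp5 was too low for the main test, and the filter on a mean FPKM of 0.1 gave a log2 change of -0.87 (SE 0.14, adjusted p = 0.0412). The members of this phosphatase family that are best known as ERK feedback genes stood on opposite sides: Dusp6 and Dusp4 were higher and Dusp5 was lower in the same 3 cultures.

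Spry2 and Spry4 encode Sprouty proteins, which block receptor signalling to RAS and RAF, and Spred1 encodes a relative that recruits neurofibromin to RAS. Spry4 went from 0.0218 to 4.77 FPKM in 2i-14, from 0.979 to 2.59 in 2i-O48 and from 0.0111 to 1.26 in 2i-O48-TKO. The 3 switched libraries lay above the 3 libraries in 2i/L, in which 2i-O48 stood far above the other two. The log2 change was 1.50 (SE 0.33, adjusted p = 0.0483), and Spry4 entered the test only through its switched libraries, so it had to differ. Its values before the switch rest on about 1.90 fragments for 2i-14 and 0.95 for 2i-O48-TKO, against 89.5 for 2i-O48. The ratio in 2i-14 was 219, with a 95% counting interval of 60.3 to 1815, and that in 2i-O48-TKO was 113, with an interval of 19.8 to 4502. These intervals cover counting error only. In 2i-14, p18 and p39 in 2i/L had 0.0923 and 0.134 FPKM, so the ratio of 219 depends on p50 as the control. With p18 or p39 as the control the log2 change of Spry4 was 1.47 or 1.45. In 2i-O48, the only line with many fragments before the switch, the ratio was 2.64.

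Spry2 went from 50.3 to 72.7 FPKM in 2i-14, from 25.1 to 51.99 in 2i-O48 and from 21.1 to 33.7 in 2i-O48-TKO. It was higher in each line, by 0.73 on the log2 scale (SE 0.20), but the groups overlapped and the change did not pass (adjusted p = 0.0798). Spred1 went from 1.28 to 3.56 FPKM in 2i-14, from 1.88 to 3.05 in 2i-O48 and from 1.22 to 2.39 in 2i-O48-TKO. Its groups did not overlap, and its log2 change of 0.70 (SE 0.20) did not pass either (adjusted p = 0.0881).

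Etv4 and Etv5 encode ETS transcription factors of the PEA3 group, which act downstream of FGF signalling. Etv4 went from 0.503 to 3.17 FPKM in 2i-14, from 2.94 to 4.60 in 2i-O48 and from 0.327 to 2.54 in 2i-O48-TKO. It was higher in each line, although 2i-O48 in 2i/L already lay above switched 2i-O48-TKO cells. The log2 change was 1.13 (SE 0.25, adjusted p = 0.0494). With 2i-14 p18 or p39 as the control, at 0.714 and 0.818 FPKM, the log2 change of Etv4 was 1.07 or 1.04. Etv5 did not follow it: it went from 21.9 to 29.8 FPKM in 2i-14, but from 29.4 to 14.6 in 2i-O48 and from 24.1 to 14.8 in 2i-O48-TKO. Its log2 change was -0.40 (SE 0.30, adjusted p = 0.440). The direction in 2i-14 depended on the control: p18 and p39 in 2i/L, at 38.5 and 41.2 FPKM, lay above the switched cells, so that Etv5 was lower in all 3 lines with either, and the log2 change was -0.67 (adjusted p = 0.0640) or -0.70 (adjusted p = 0.0547).

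Egr1 and Ier3 are immediate early genes, a zinc finger transcription factor and a regulator of survival and ERK dephosphorylation. Egr1 went from 1.19 to 1.33 FPKM in 2i-14, from 0.114 to 1.18 in 2i-O48 and from 0.825 to 0.709 in 2i-O48-TKO, without a common direction. Its log2 change was 0.32 (SE 0.24, adjusted p = 0.446). Ier3 went from 32.1 to 8.67 FPKM in 2i-14, from 11.8 to 9.10 in 2i-O48 and from 79.7 to 3.71 in 2i-O48-TKO. All 3 switched libraries lay below all 3 in 2i/L, but the size of the step differed widely between lines, and a log2 change of -2.07 (SE 0.64) did not pass (adjusted p = 0.108).

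**Figure D2:**
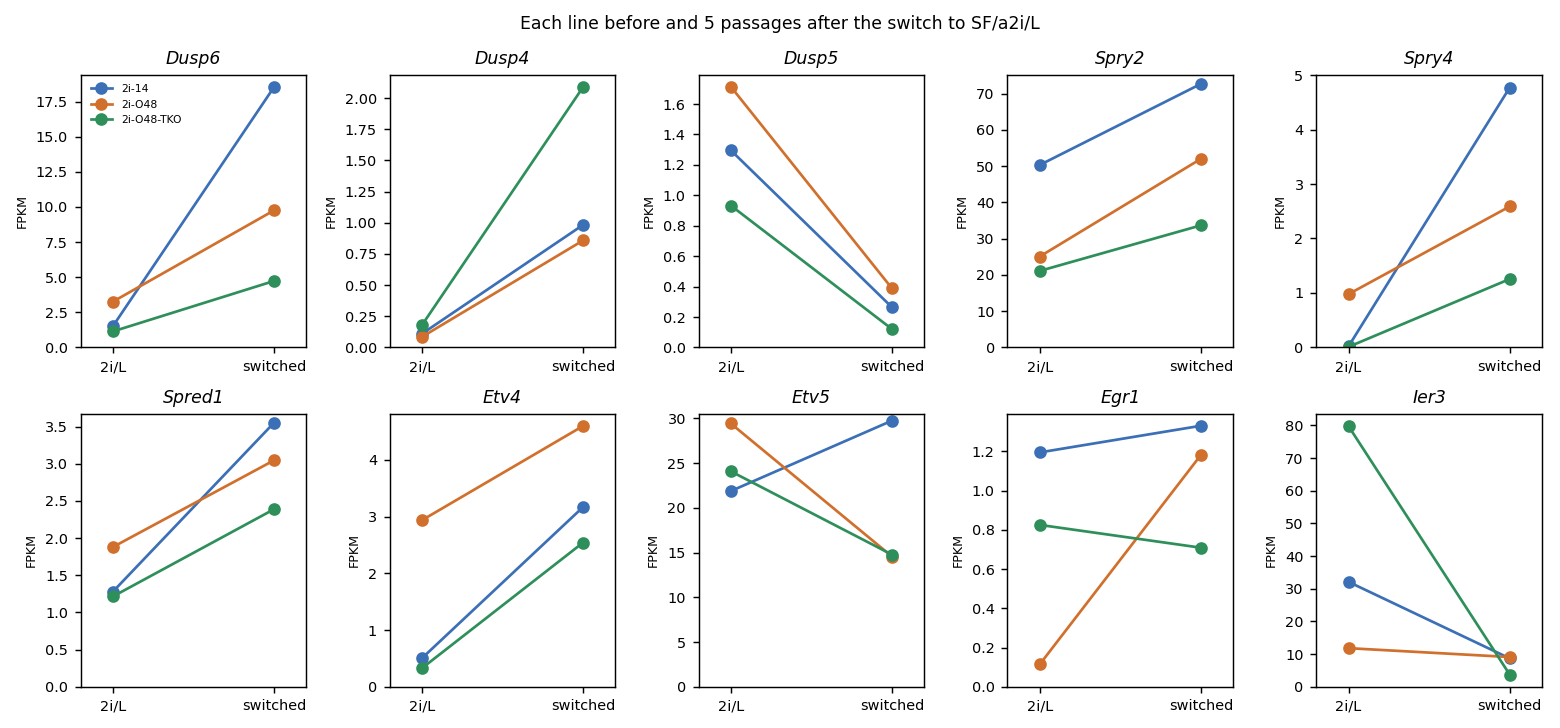
FPKM of each gene in 2i/L and after the switch to SF/a2i/L, with 1 line drawn per cell line (wild-type 2i-14 and both DMR-deleted lines) and linear axes from 0. Dusp6, Dusp4, Spry2, Spry4, Spred1 and Etv4 are higher and Dusp5 and Ier3 lower in all 3 lines, while Etv5 and Egr1 have no common direction; for Etv5 this holds with 2i-14 p50 as the control, as drawn, and not with p18 or p39.

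Dusp6 and Spry4 were called in limma with any line left out. Spry4 was tested there only through its switched libraries, so its calls are no support. These runs held few libraries, and genes had to reach 1 FPKM in fewer of them. Without 2i-14, Ier3 was also called, as lower (adjusted p = 0.0202), and Etv4 was not, which makes 3 genes. Without 2i-O48, Etv4, Spred1 (adjusted p = 0.0427) and Ier3 (adjusted p = 0.00551) were called as well, 5 genes in all, and without 2i-O48-TKO no other gene was. Calls over all tested genes moved too. They were 1031 of 9959 without 2i-14, 1461 of 9888 without 2i-O48 and 311 of 9810 without 2i-O48-TKO, against 672 of 9759. Dusp6 was called in 13 of 15 alternatives, Spry4 in 10 of 14 and Etv4 in 7 of 14. Wherever the filter asked for 1 FPKM, Spry4 and Etv4 passed it only through their switched libraries, so their counts are no support. With 2i-14 p50 as its control, 2i-14 had a larger step than the DMR-deleted lines in Dusp6, by 1.57 on the log2 scale, and in Spry4, by 1.49. Neither difference passed a test of the difference itself (limma interaction term, adjusted p = 0.626 and 0.527), which had a single wild-type pair. The switched 2i-14 library also stood apart in its summed FPKM, 2146932 against 651115 to 871848 in the other 12 libraries, and the part of this in its steps was not tested. Fibroblast markers were low in all 6 libraries of this comparison, with a mean log2(FPKM + 1) of 0.181 to 0.324.

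The 5 TSa2i/L libraries were then set against the 3 of 2i-14 in 2i/L, to ask whether long-term culture without the Mek inhibitor shows the same genes. Spry4 and Etv4 rose, and Dusp4 was higher without overlap. Dusp6 was on average 2.88 times as high but missed the test. Dusp5 and Ier3, lower in each switched line, had overlapping groups here. Of the 9 genes tested, 2 were called higher and none lower, where 5.72% of 10387 tested genes were called higher and 1.85% lower. Both called genes had passed the filter only through their TSa2i/L libraries, so this count is no support for the 10 genes and nothing is read from it against the background. With median centring 359 of all tested genes were called higher and 280 lower, against 594 and 192. None of the 9 was called with median centring or quantile normalization (adjusted p = 0.0546 and 0.0660 for Spry4, 0.0794 and 0.116 for Etv4). The median log2 change was 0.44 over the 9 genes and -0.24 over the 7 without Spry4 and Etv4, against 0.07 over all tested genes. Egr1, at 1 FPKM or more in 2 of 3 libraries of 2i-14, also passed the filter only with its TSa2i/L libraries. Among the tested genes, only the groups of Spry4 and Etv4 did not overlap, which the filter largely fixed. Over all tested genes, 11.8% were higher and 4.72% lower without overlap. The 2 comparisons share the library of 2i-14 p50 and are therefore not independent.

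Dusp6 was 2.86, 2.21 and 1.53 FPKM in 2i-14 at p18, p39 and p50. It was 9.05, 2.70 and 6.79 FPKM in TSa2i-14 (p22, p47, p54, the order kept below) and 3.96 and 9.19 FPKM in p9 and p58 of TSa2i-C57. TSa2i-14 p47 lay within the range of 2i/L and the other 4 above it, and the log2 change of 1.11 (SE 0.33) did not pass (adjusted p = 0.0686). Dusp4 was listed at 0 in 2i-14 p18 and was 0.108 and 0.109 FPKM at p39 and p50. It was 0.629, 0.779 and 0.235 FPKM in TSa2i-14 and 0.785 and 0.834 FPKM in TSa2i-C57. All 5 libraries in TSa2i/L lay above all 3 in 2i/L. Dusp4 passed the filter on a mean FPKM of 0.1 only through TSa2i/L, so it had to differ, and there the log2 change was 0.61 (SE 0.15, adjusted p = 0.0419), where 3.43% of 14235 genes were called higher. With that filter Spry4 was called (adjusted p = 0.0463) and Etv4 was not (adjusted p = 0.0536).

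Dusp5 was 1.55, 1.46 and 1.30 FPKM in 2i-14, against 1.43, 0.956 and 1.92 FPKM in TSa2i-14 and 0.0806 and 1.09 FPKM in TSa2i-C57. The value in TSa2i-C57 p9, about 2.53 fragments, stood apart from 4 libraries near the level of 2i/L. The log2 change was -0.29 (SE 0.28, adjusted p = 0.591).

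Spry4 was 0.0923, 0.134 and 0.0218 FPKM in 2i-14. It was 1.26, 0.414 and 1.25 FPKM in TSa2i-14 and 0.472 and 1.51 FPKM in TSa2i-C57. The groups were well apart, with a ratio of means of 11.8 and a log2 change of 0.83 (SE 0.22, adjusted p = 0.0415), and the gene again entered the test only through the group in which it was high. Spry2 was 57.2, 32.0 and 50.3 FPKM in 2i-14, 48.6, 26.7 and 30.2 in TSa2i-14, and 49.6 and 29.9 in TSa2i-C57. It was not higher without the Mek inhibitor in these lines, with a log2 change of -0.33 (SE 0.26, adjusted p = 0.499). Spred1 was 1.01, 1.64 and 1.28 FPKM in 2i-14, 1.54, 2.17 and 2.99 in TSa2i-14, and 1.45 and 2.71 in TSa2i-C57. Its groups overlapped, with a log2 change of 0.44 (SE 0.21, adjusted p = 0.239).

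Etv4 was 0.714, 0.818 and 0.503 FPKM in 2i-14, 1.88, 1.46 and 2.13 in TSa2i-14, and 1.16 and 1.51 in TSa2i-C57. All 5 libraries in TSa2i/L lay above all 3 in 2i/L, with a log2 change of 0.64 (SE 0.17, adjusted p = 0.0486); Etv4 too was tested only because of its levels in TSa2i/L. Etv5 was 38.5, 41.2 and 21.9 FPKM in 2i-14, 26.1, 25.5 and 23.0 in TSa2i-14, and 20.2 and 21.5 in TSa2i-C57. The p50 library of 2i-14 was as low as those in TSa2i/L, and the log2 change of -0.48 (SE 0.21) did not pass (adjusted p = 0.205). The log2 change of Etv5 was thus below 0 in both comparisons, where that of Etv4 was above 0.

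Egr1 was 0.524, 1.10 and 1.19 FPKM in 2i-14, 4.70, 0.539 and 2.57 in TSa2i-14, and 1.16 and 3.57 in TSa2i-C57. It was highest in TSa2i-14 p22 and p54 and TSa2i-C57 p58, and the groups overlapped (log2 change 0.72, SE 0.38, adjusted p = 0.290). Ier3 was 12.7, 32.7 and 32.1 FPKM in 2i-14, 13.5, 17.9 and 46.8 in TSa2i-14, and 7.31 and 36.0 in TSa2i-C57. Its levels spread as widely within each medium as between them (log2 change -0.24, SE 0.52, adjusted p = 0.834).

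**Figure D3:**
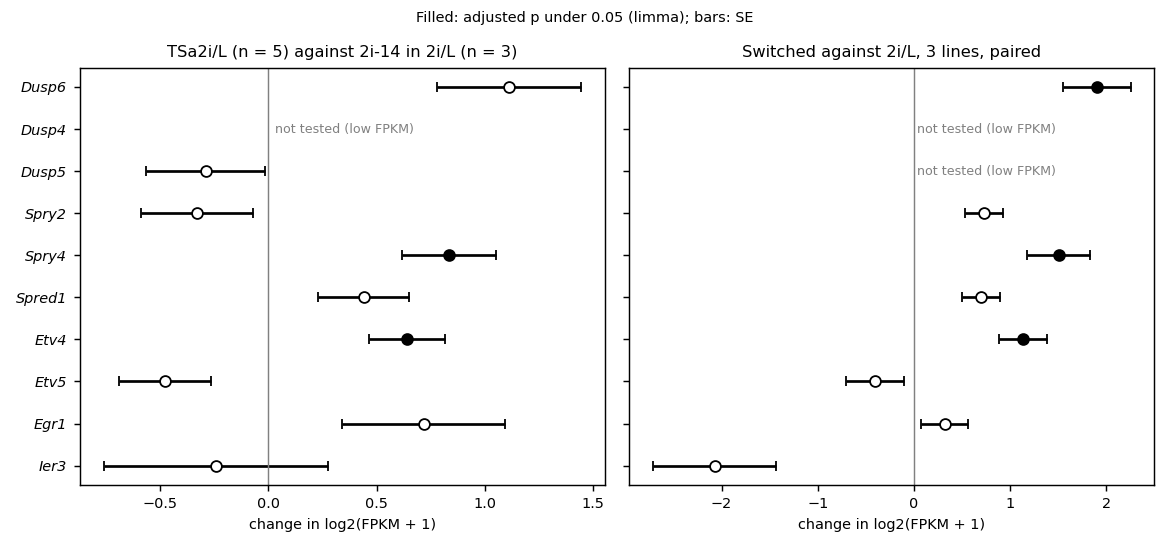
Change in log2(FPKM + 1) of each gene with its SE, for TSa2i/L (n = 5) against 2i-14 in 2i/L (n = 3) on the left and switched cells against 2i/L in 3 paired lines on the right; filled points have an adjusted p under 0.05 by limma. Spry4 and Etv4 are filled in both panels and Dusp6 only on the right, with log2 changes of 1.11 and 1.90.

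The 3 TSa2i/L libraries with the most Egr1 were also those with the most RNA of fibroblast markers. The mean log2(FPKM + 1) of the 15 markers was 2.40 for p54 of TSa2i-14, 1.41 for p58 of TSa2i-C57 and 0.62 for p22 of TSa2i-14, against 1.71 for p39 of 2i-14 and 0.181 to 0.367 in the other libraries. Its part in these values was not tested. Without p54, p58 and 2i-14 p39, none of the 8 genes that could be tested was called in limma, and 229 of 10310 genes were called in all. In that setting the log2 change of Etv4 was 0.63, against 0.64 with all 8 libraries, and Spry4 was too low to be tested. The change of Egr1 was 0.54 there, against 0.72, and that of Ier3 was -0.69, against -0.24. With the marker mean as a covariate 1 gene was called. Leaving out single libraries gave 0 to 2 called genes: 0 without 2i-14 p18, p39, TSa2i-14 p22, p54 or TSa2i-C57 p58, and 1, lower, without 2i-14 p50, which was Etv5 (adjusted p = 0.0430). Over all tested genes, between 383 of 10748 (without 2i-14 p39) and 846 of 10288 (without TSa2i-14 p22) were called, against 786 of 10387. Spry4 was too low to be tested without p22, p54 or p58, where the log2 change of Etv4 was 0.57 to 0.65, and without 2i-14 p18 or p39 the change of Spry4 was 0.84 and 0.87, against 0.83 with all 8 libraries. Without TSa2i-14 p47, the lowest of the 5 in Dusp6, Dusp6 was called (adjusted p = 0.0315) and Etv4 was not.

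Across the 5 libraries in 2i/L, 2i-O48 stood apart most in Spry4, Etv4 and Egr1. It had the highest Dusp6, Spry4, Spred1, Etv4 and Dusp5 levels and the lowest Egr1 and Ier3 levels of the 5. The margin to the next library was small for Dusp6 (3.26 against 2.86 FPKM) and Dusp5 (1.71 against 1.55). It was also small for Spred1 (1.88 against 1.64 FPKM) and Ier3 (11.8 against 12.7). Dusp4, Spry2 and Etv5 in 2i-O48 lay within the range of the other libraries. For Spry4 it had 0.979 FPKM, where the next highest library had 0.134. For Etv4 it had 2.94 FPKM, where the others had 0.327 to 0.818. 2i-O48-TKO had the lowest Dusp6, Spry4 and Etv4 and the highest Ier3 of the 5, at 79.7 FPKM. Trophoblast markers summed to 108 FPKM in 2i-O48 and to 18.7 to 50.4 in the other 4, and their part in these levels was not tested. With 1 library of each deleted line in 2i/L, genotype and culture cannot be told apart.

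Late passages (p47, p54 and p58) were compared with early passages (p22 and p9) in TSa2i/L. None of the 9 tested genes was called, and the share of all 10502 genes called was 0.0% by limma, with 928 genes at an unadjusted p under 0.05. Spry2 was 26.7, 30.2 and 29.9 FPKM in late passages and 48.6 and 49.6 FPKM in early passages. Ier3 was 17.9, 46.8 and 36.0 FPKM in late passages and 13.5 and 7.31 FPKM in early passages. Spred1 was 2.17, 2.99 and 2.71 FPKM in late passages and 1.54 and 1.45 FPKM in early passages. These 3 genes did not overlap between passages, Spry2 lower and Ier3 and Spred1 higher in late ones, where 9.72% and 18.5% of all tested genes did so. Their log2 changes were -0.75 (SE 0.19) for Spry2, 1.55 (SE 0.42) for Ier3 and 0.53 (SE 0.21) for Spred1, with adjusted p of 0.530, 0.530 and 0.535. Fibroblast markers moved with this comparison, with a median log2 change of 1.14 over 7 tested markers against 0.09 over all tested genes, and p54 and p58, the late libraries with the most of their RNA, also had the most Ier3 and Spred1. Their part in these values was not tested.

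The other genes of the pathway were called in both directions. Of 25 other ERK feedback and target genes, 16 were tested in each comparison, and 2 fell in each, Dusp14 and Epha4, where 1.85% of all tested genes were called lower in TSa2i/L and 4.66% after the switch. Epha4 reached 1 FPKM in 1 of 5 TSa2i/L and 0 of 3 switched libraries and was tested only through 2i/L, so it had to differ. Dusp14, a small dual-specificity phosphatase, went from 75.4 ± 7.04 (SD, n = 3) to 30.5 ± 14.5 FPKM (n = 5) in TSa2i/L (log2 change -1.38, adjusted p = 0.0183). After the switch it went from 74.5 ± 29.6 to 22.8 ± 10.2 FPKM (n = 3 each, log2 change -1.66, adjusted p = 0.0150). Epha4, an ephrin receptor, fell by 1.41 on the log2 scale in TSa2i/L (adjusted p = 0.00295) and by 1.84 after the switch (adjusted p = 0.0103). Dusp9, the ERK phosphatase best known from ESCs, had log2 changes of -0.23 (adjusted p = 0.654) and -0.31 (adjusted p = 0.628), and Spry1 of -0.01 (adjusted p = 0.990) and 0.13 (adjusted p = 0.704).

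Of 18 other immediate early genes, 11 were tested in TSa2i/L, of which Atf3 and Zfp36 rose, where 5.72% of all tested genes were called higher. Atf3 reached 1 FPKM in 2 of 3 libraries of 2i-14 and passed the filter with its TSa2i/L libraries. Atf3, a stress-responsive bZIP factor, had a log2 change of 2.54 (adjusted p = 0.00398), from 1.42 ± 1.06 to 13.1 ± 6.48 FPKM. Zfp36, which promotes mRNA decay, had a log2 change of 0.77 (adjusted p = 0.0219). After the switch 10 were tested, of which Cyr61 and Jund fell, where 4.66% of all tested genes were called lower. Cyr61, a matricellular gene that responds to serum, went from 17.7 ± 5.66 to 3.39 ± 1.22 FPKM (log2 change -2.08, adjusted p = 0.0181) after the switch, and was 21.9 ± 2.72 in 2i-14 and 24.4 ± 7.52 FPKM in TSa2i/L. Jund, an AP-1 subunit, fell by 1.10 on the log2 scale (adjusted p = 0.0330). Fos, the classical immediate early gene, had log2 changes of 0.87 (adjusted p = 0.349) in TSa2i/L and 0.14 (adjusted p = 0.880) after the switch.

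Components of the cascade itself were called in 1 of 27 and 2 of 25 tests, where 5.72% of all tested genes were called higher in TSa2i/L and 4.66% lower after the switch. Of 40 FGF-ERK components, 27 were tested in TSa2i/L, of which Rps6ka2, a kinase activated by ERK, rose (log2 change 0.91, adjusted p = 0.0143). After the switch 25 were tested, of which Rps6ka1, a kinase of the same family, fell by 1.32 (adjusted p = 0.0185) and Ets2, an ETS factor, fell by 1.00 (adjusted p = 0.0413). The ligand gene Fgf4 was 55.0 ± 11.5 FPKM in 2i-14 and 48.9 ± 6.83 in TSa2i/L, and went from 53.2 ± 10.0 to 40.3 ± 2.09 FPKM at the switch, with adjusted p of 0.669 and 0.293. The receptor gene Fgfr1 had log2 changes of -0.08 (adjusted p = 0.871) and -0.72 (adjusted p = 0.0671), and Fgfr2 was too low to be tested, with 0.0372 to 1.19 FPKM. At the switch the log2 changes were -0.67 for Map2k1 (adjusted p = 0.0877) and -0.99 for Map2k2 (adjusted p = 0.0860), which encode MEK1 and MEK2, and -0.30 for Mapk3 (adjusted p = 0.477), which encodes ERK1. In TSa2i/L they were -0.22, -0.36 and 0.12, with adjusted p of 0.473, 0.571 and 0.791.

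**Figure D4:**
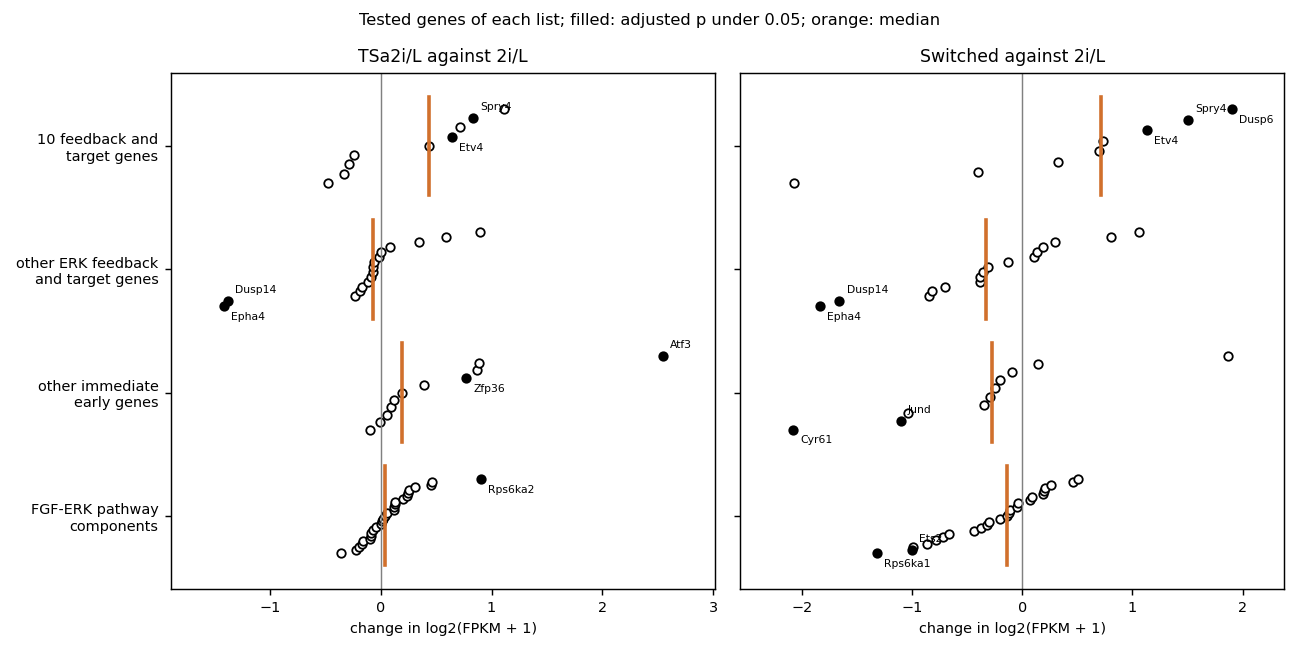
Changes in log2(FPKM + 1) of the tested genes in 4 lists, for TSa2i/L against 2i/L on the left and switched cells against 2i/L on the right; filled, named points have an adjusted p under 0.05 by limma and orange bars are medians. The median of the feedback and target genes tested is 0.44 on the left and 0.72 on the right (-0.24 and 0.51 without Spry4 and Etv4, which the filter kept only because they were high without the Mek inhibitor), and those of the 3 other lists are between -0.07 and 0.19 on the left and between -0.33 and -0.14 on the right. Egr1 also passed the filter only with libraries that lacked that inhibitor, and Dusp5, lower after the switch, was not tested on the right.

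Of the other cell type markers, Krt7, a trophoblast keratin, rose in TSa2i/L (log2 change 1.99, adjusted p = 0.000398). It was the only one called of 7 trophoblast markers tested in TSa2i/L, whose median log2 change was 0.55, where 5.72% of all tested genes were called higher. It too reached 1 FPKM in 2 of 3 libraries of 2i-14 and passed the filter with those in TSa2i/L. After the switch none of 6 was called, with a median of -0.70, and the sum over all 10 in 2i-O48 went from 108 to 12.4 FPKM. After the switch, Nanog fell by 0.93 on the log2 scale (adjusted p = 0.0483), from 316 ± 131 to 162 ± 45.1 FPKM, and was the only one called of 10 pluripotent markers, whose median log2 change was -0.05 against -0.09 over all tested genes. Sparc fell by 1.19 (adjusted p = 0.0204), while Lamb1, the other primitive endoderm marker tested, had a log2 change of 0.41 (adjusted p = 0.351). None of the 7 tested fibroblast markers was called in TSa2i/L, with a median log2 change of 0.95, and none was high enough to be tested after the switch. The part of these markers in the results was not tested.

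The genes whose levels ran most like these over the 13 libraries were described by Pearson's r of log2(FPKM + 1) among 10031 genes, as a description without a test, since all points share their libraries. Bmp4, a ligand of the BMP pathway, was the most like Spry4 (r = 0.919), Enox1 the most like Dusp6 (r = 0.923) and Npy, a neuropeptide gene, the most like Etv4 (r = 0.904). Dusp5 was most like Gatad2a (r = 0.929), Etv5 most like H2afx (r = 0.929) and Spry2 most like AW146154 (r = 0.921). For Spred1 the gene was Zfp518a (r = 0.903), for Ier3 Rhobtb3 (r = 0.911) and for Egr1 Psmb8 (r = 0.861). Dusp4, with a mean under 1 FPKM, was left out.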

How the data were processed

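Full-length cDNA was amplified from haploid cells, and per the labels and methods the authors mapped the reads (mm9, TopHat) and deposited Cufflinks FPKM values, scaled to transcript length and mapped total; the submitters' processing notes list TopHat2 2.0.11, Bowtie2 2.2.2 and Cufflinks 2.2.1. The gene annotation and any scaling between libraries are not given in the sources used here. Since FPKM values are not counts, no count model was used.

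Rows of a symbol were summed. The 3 comparisons were fitted in limma 3.58.1 (R 4.3.3) on log2(FPKM + 1) over all genes that reached an FPKM of 1 in 3 libraries (2 in the passage comparison), with an intensity trend and Benjamini-Hochberg adjustment at 0.05. The cell line was a block in the switch comparison, because the labels name the same line in both media. The deviations of paired libraries had a correlation of 0.17 for 2i-14, -0.14 for 2i-O48 and 0.36 for 2i-O48-TKO. Passage 30 divided early from late. Depth was estimated from single-fragment FPKM steps on 3737 genes, and this step and the fits were tested on simulated data.

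The 10 genes and all gene lists were chosen with earlier results of these data known. All 10 are named, with at most the 4 largest called changes of each other list, 10 pathway genes chosen by name (1 of them is not reported here), and the most alike gene of each. Alternatives covered the pseudocount (0.1), filter, scaling, trend, repeated symbols, control libraries, fibroblast RNA, block and single libraries. A filter on a mean FPKM of 0.1 and the interaction term were added after seeing the data. The rest was done in Python 3.11.15 (numpy 2.4.6; pandas 2.3.3; matplotlib 3.10.9).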

Additional observations from a re-analysis of the deposited data

Results flagged for a closer look

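At the switch, the log2 change of Etv5 was 0.4268 in wild-type 2i-14. It was -0.97 and -0.67 in the lines that lack the DMRs, 2i-O48 and 2i-O48-TKO. Each value sets 1 library against 1, and over the 3 lines Etv5 did not pass in limma (adjusted p = 0.440). A limma interaction term put the difference at 1.25 (SE 0.52, adjusted p = 0.692), with a single wild-type pair. The direction in 2i-14 rests on p50 as its control, since the p18 and p39 libraries in 2i/L (38.5 and 41.2 FPKM) lie above switched 2i-14 cells (29.8 FPKM). Among the 5 TSa2i/L libraries, the gap from the highest or lowest library to its neighbour, as a share of the range, stayed under the 95% limit of Dixon's test for each of the 10 genes, Dusp5 in TSa2i-C57 p9 included; chance puts about 0.5 of 10 above it.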

How the results depend on the processing

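The calls lie close to the threshold. In TSa2i/L against 2i/L, where 2 genes were called, 0 were called without a filter on low FPKM, with a mean FPKM of at least 5, with median centring, with quantile normalization, without the 3 libraries with fibroblast RNA and with TSa2i-14 only. Neither Spry4 nor Etv4 was tested at a mean FPKM of at least 5, and Spry4 was not tested in the last 2 of these settings, in which the log2 change of Etv4 was 0.63 and 0.75 against 0.64. Over all genes, these settings called 208 of 24028, 458 of 6381, 639, 655, 229 of 10310 and 468 of 10038, in the same order, against 786 of 10387. Of the 10 genes, 1 was called with the fibroblast marker mean as a covariate (Spry4), and 790 genes in all. With the DMR-deleted lines among the controls 1 was called in limma, Dusp6 (adjusted p = 0.0265), and 1316 of 10597 genes in all. Spry4 (adjusted p = 0.0709) and Etv4 (adjusted p = 0.270) were not called in that setting. Leaving out each library gave 0 to 2, where 383 to 846 genes were called in all. After the switch, where 3 were called and 672 of all 9759 genes, 1 was called with pseudocount 0.1, and 574 in all. With a mean FPKM of at least 5, where Spry4 and Etv4 were not tested, 1 was called, and 369 of 6107 in all. Without the trend 1 was called, and 621 in all. Without a filter 0 of all 24028 genes were called, so that setting says nothing about the 10 genes. The log2 changes there were still 1.90 for Dusp6, 1.50 for Spry4 and 1.13 for Etv4. With 2i-14 controls from all 3 passages 6 were called, 1 of them lower (Dusp5), and 1505 of 10106 in all. With 2i-14 p39 as the control 5 were called, 1 of them lower (Ier3), and 1522 of 9796 in all. With 2i-14 p18 as the control 3 were called, and 1483 of 9791 in all. Calls over all genes thus rose in these settings too, against 672 of 9759. Leaving out each line gave 2 to 5, where 311 to 1461 genes were called in all. Without the replicate block for the cell line, 2 genes were called after the switch and 778 in all, against 672. Late against early passages gave 0 in each alternative run. Over all genes, 20 of 24028 were called without a filter and 8 of 10282, all higher, without TSa2i-14 p47.

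Median centring lowered all changes in TSa2i/L by 0.12 and raised those after the switch by 0.17 on the log2 scale, and none of the 9 and 8 genes tested there changed direction with either scaling. In TSa2i/L, Spry2 turned to 0.0471 with the DMR-deleted lines among the controls, and Ier3 ranged from -0.672 to 0.0899 with each library left out. After the switch, Egr1 ranged from -0.0041 to 0.53. In late passages, the change of Etv4 was -0.0171 with median centring and -0.0844 with quantile normalization, that of Spry4 -0.0354 with quantile normalization, and that of Etv5 -0.0319 with quantile normalization, -0.0244 with the replicate block and -0.106 with median centring. With a library left out, Dusp6 ranged from -0.394 to 0.335, Spry4 from -0.0323 to 0.382, Etv4 from -0.0049 to 0.167, Etv5 from -0.0466 to 0.0702 and Egr1 from -0.579 to 0.206. Of the other values of single genes, 326 kept direction and call, 35 were no longer called and 11 became called. The cause was not tested. Depth limits Dusp4 and Spry4 in 2i/L, where values rest on few fragments, except that of Spry4 in 2i-O48 (about 89.5 fragments).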
